A study of Mus musculus with 4 samples.

Results

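The Hox genes were taken as every gene of the deposited count matrix whose symbol is Hox, a cluster letter from a to d and a paralogue number, which gave 39 of 31053 genes. The rule used symbols only and no measured value, though it was set with earlier results of these data known. The counts came from droplet-based single-cell RNA sequencing (10x Genomics Chromium) of mouse fetal cells, with 1 library in each of 4 groups. All fetuses were labelled Cyp27a1-/-, that is, without sterol 27-hydroxylase, a mitochondrial enzyme of oxysterol and bile acid synthesis. The groups were E14.5 fetuses (embryonic day) carried by a Cyp27a1+/- mother (heterozygous mother), E14.5 fetuses carried by a Cyp27a1-/- mother (null mother), and the same pair at E18.5. The comparison in the labels is therefore between mothers, and no group was labelled as carrying a fetal wild-type allele, although the title of the E18.5 heterozygous-mother library has the letters WT, which the genotype label does not bear out. The labels used here do not say how many fetuses were pooled. With 1 library in a group there was no replicate and no test, so ratios between libraries compare those libraries, and every interval given is a 95% interval for counting error only.

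Hox genes encode homeodomain transcription factors that set position along the head-to-tail axis of the embryo. They lie in 4 clusters, and genes at the same place in different clusters are paralogues that share a number. Genes of low number are switched on early and reach far forward, and genes of high number are switched on late and stay towards the tail. HOX proteins bind DNA together with cofactors of the TALE family such as PBX and MEIS proteins. Hoxa5 is known for its part in lung and respiratory tract development, and Hoxa9 for its part in blood stem and progenitor cells.

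The E14.5 libraries held 4957 and 4843 cells with a median of 3697 and 6387 UMIs (heterozygous mother, then null mother, an order kept throughout). The libraries labelled E18.5 held 17034 and 16517 cells with a median of 3782.5 and 4848 UMIs. The contents of the latter went against their lung label: Nkx2-1, which specifies lung epithelium, was counted 4 times and 1 time against 1935 and 2804 UMIs at E14.5, and Alb, the albumin gene of hepatocytes, stood at 2905 and 8344 UMIs per 1000000 UMIs (CPM) against 0.574 and 0.469. These libraries held blood cells, hepatocytes and endothelium and are called by their label only. Cyp27a1 itself was counted at 18.7 and 19.7 CPM and at 38.5 and 37.3 CPM, and since the deleted part of the gene is not given in the sources used here, this did not check the genotype. Xist, transcribed in female cells, stood at 561, 611, 0.347 and 261 CPM, so the E18.5 pair differed in the sex of its cells. Between 93 and 164 cell barcodes were shared by each pair of libraries.

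The Hox clusters of the mouse (GRCm38, GENCODE M21 annotation) span chr6:52155590-52260880 for Hoxa (11 members, minus strand), chr11:96194316-96368256 for Hoxb (10 members, plus strand), chr15:102921103-103036852 for Hoxc (9 members, plus strand) and chr2:74668310-74765142 for Hoxd (9 members, plus strand). Of the 24 promoter windows that the RefSeq table holds for 22 members, 4 are shown for the genes on which the results turn: Hoxa5, which led lung fibroblasts and E14.5 endothelium, Hoxb4, which led smooth muscle, Hoxa9, which led blood progenitors, and Hoxd9, which was found in few endothelial cells. Each is the 250 bases before the RefSeq start on GRCm38.p6, written 5′ to 3′ on the gene's strand, with every CG dinucleotide in capitals. The windows are chr6:52204588-52204837 (Hoxa5, minus strand), chr11:96318017-96318266 (Hoxb4, plus strand), chr6:52227371-52227620 (Hoxa9, minus strand) and chr2:74697513-74697762 (Hoxd9, plus strand).
Hoxa5: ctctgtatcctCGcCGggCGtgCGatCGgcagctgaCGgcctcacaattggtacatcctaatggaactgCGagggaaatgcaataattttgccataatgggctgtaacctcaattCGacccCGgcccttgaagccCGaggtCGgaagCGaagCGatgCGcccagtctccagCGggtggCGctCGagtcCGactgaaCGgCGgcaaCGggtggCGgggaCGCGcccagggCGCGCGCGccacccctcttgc
Hoxb4: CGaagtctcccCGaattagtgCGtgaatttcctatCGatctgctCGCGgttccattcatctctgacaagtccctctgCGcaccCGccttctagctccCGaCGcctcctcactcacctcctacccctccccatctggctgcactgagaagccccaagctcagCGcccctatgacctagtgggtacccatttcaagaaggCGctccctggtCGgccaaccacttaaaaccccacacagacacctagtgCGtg
Hoxa9: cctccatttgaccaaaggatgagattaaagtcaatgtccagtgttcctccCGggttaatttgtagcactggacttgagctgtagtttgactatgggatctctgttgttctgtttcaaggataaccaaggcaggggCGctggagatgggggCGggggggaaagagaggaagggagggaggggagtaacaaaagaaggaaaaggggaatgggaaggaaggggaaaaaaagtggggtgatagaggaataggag
Hoxd9: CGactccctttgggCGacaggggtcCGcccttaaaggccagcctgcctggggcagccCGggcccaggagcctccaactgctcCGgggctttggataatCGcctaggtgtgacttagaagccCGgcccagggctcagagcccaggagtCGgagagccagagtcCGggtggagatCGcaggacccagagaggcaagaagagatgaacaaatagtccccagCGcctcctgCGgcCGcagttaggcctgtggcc

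The windows differ in their CG dinucleotides, the sites of DNA methylation and of CpG islands. Hoxa5 has 28, more than 92.4% of the 32851 promoter windows of the table, Hoxb4 has 14 and Hoxd9 has 13. Hoxa9 has 3, below the median of 6 over all windows, while the median of the 24 Hox windows is 12.5. A PBX and HOX motif, TGATNNAT read on both strands, was found in 4 of the 24 Hox windows (16.7%) and in 7.68% of all windows. A MEIS motif, TGACAG on both strands, was found in 2 Hox windows (8.33%) and in 15.9% of all windows. Neither motif is in the windows shown.

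Of the 39 members, 9 had no UMI in any library: Hoxa11, Hoxb13, Hoxc10, Hoxc11, Hoxc12, Hoxc13, Hoxd4, Hoxd10 and Hoxd12, most of them high-numbered genes of the limbs, tail and urogenital tract. The exons of Hoxd4 share 52.3% of their length with Hoxd3 and Gm28230 on the same strand, and how reads that fit several genes were counted is not given in the sources used here. A further 6 members had 1 to 9 UMIs over all libraries, 8 had 10 to 99, 5 had 100 or more but under 1000, and 11 had 1000 or more. The E14.5 libraries held 29659 and 24631 Hox UMIs (631 and 462 CPM) in 63.5% and 55.9% of cells. The libraries labelled E18.5 held 1349 and 1341 Hox UMIs (13.8 and 11.4 CPM) in 4.81% and 5.24% of cells.

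Cells were sorted into 24 classes by 8 marker genes each, a cell joining the class with the most markers found if there were at least 2 and more than for any other class. Classes of at least 50 cells in both libraries of an age are described, 8 at E14.5 and 11 in the libraries labelled E18.5; a few smaller ones are given by their level alone and are named as small. The 3 further markers kept aside for each of these classes stood higher in it than in the other gated cells in both libraries, for 57 of 57 markers. Between 9.40% and 29.4% of cells of a library stayed without a class. A member counts as measured in a class if the library where its level was higher gave 50 UMIs or more, and 16 members were measured in some class: 8 of Hoxa, 7 of Hoxb, Hoxc4 alone of Hoxc, and no member of Hoxd. Where a class had unequal totals in the 2 libraries, a member higher in the smaller one needed a higher level to be measured. Ratios between mothers are given for the 9 classes with a measured member. Levels are CPM over all UMIs of the class, where a UMI marks a molecule, so that levels of different genes were set side by side without division by length.

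At E14.5 the Hox level was highest in the mesenchymal classes. Summed over the members, lung fibroblasts held 993 and 892 CPM, smooth muscle 665 and 709 CPM, and connective tissue fibroblasts, a class marked by Dcn, Lum and Pdgfra, 715 and 543 CPM. Endothelium held 224 and 238 CPM. Heart muscle held 104 and 147 CPM from 69 and 54 UMIs, lung epithelium 31.2 and 25.2 CPM, macrophages 26.8 and 53.6 CPM and red cells 11.6 and 9.91 CPM. The order from fibroblasts through smooth muscle to endothelium and epithelium was the same in both libraries, while connective tissue fibroblasts stood above smooth muscle in the first and below it in the second.

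**Figure D1:**
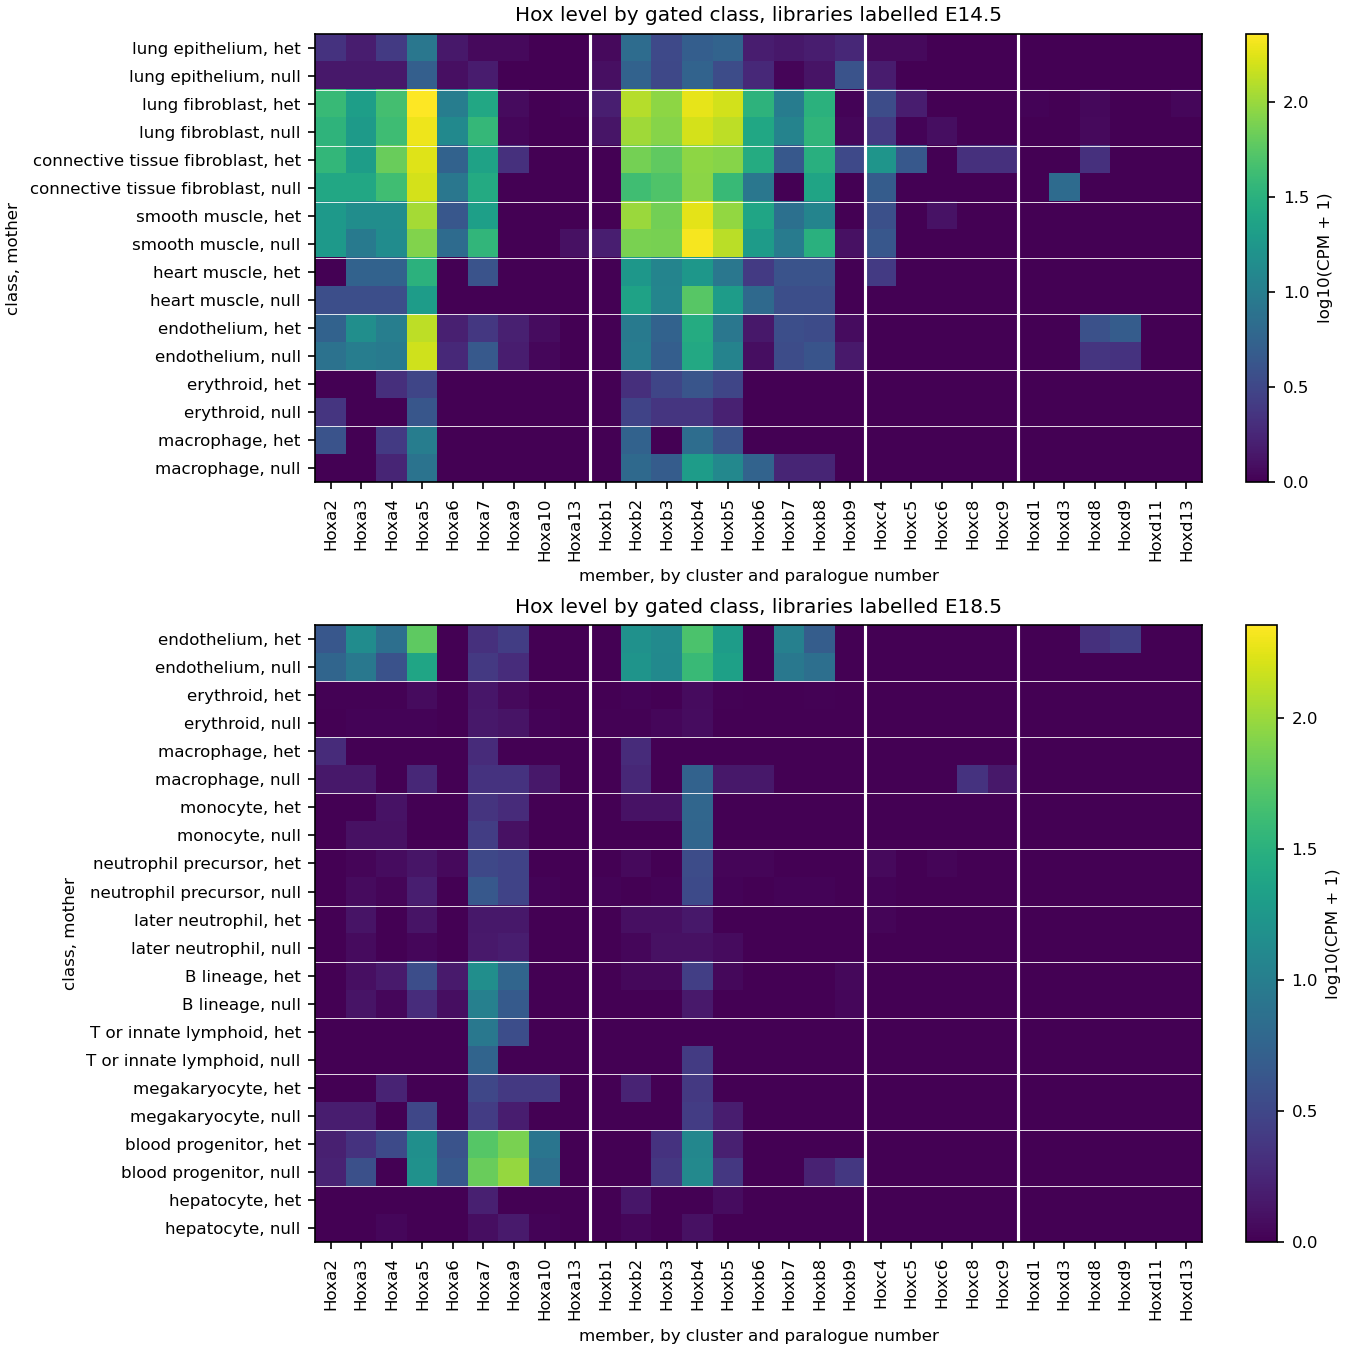
Level of the detected Hox genes, 1 left out (columns, ordered by cluster and paralogue number) in each gated class and library (rows, heterozygous mother above null mother), as log10(CPM + 1) on 1 colour scale, for the libraries labelled E14.5 (top) and E18.5 (bottom). Hoxa2 to Hoxa7 and Hoxb2 to Hoxb8 stood out in the mesenchymal classes of E14.5, and Hoxa7 and Hoxa9 in blood progenitors.

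The lung fibroblast held many members, mostly of low number. Hoxb gave 63.0% and 61.6% of its Hox UMIs and Hoxa 36.7% and 38.2%, with 0.313% and 0.207% from Hoxc and 0.0272% and 0.0177% from Hoxd. The mean paralogue number, weighted by UMIs, was 4.25 and 4.33, and numbers of 9 and above gave 0.0363% and 0.0236%. With each cell thinned to 2000 UMIs and 173 and 145 shallower cells left out, 84.9% and 82.5% of fibroblasts had a Hox UMI (94.8% and 94.4% unthinned), against 2.22% and 3.73% of red cells thinned the same way (8.49% and 8.33% unthinned). A thinned fibroblast showed 1.73 and 1.58 different members on average, and 53.3% and 46.2% of them showed at least 2.

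Among the low-numbered members of fibroblasts, Hoxa2 stood at 37.4 and 32.8 CPM and Hoxb2 at 123 and 105 CPM. Hoxa3 stood at 19.7 and 18.3 CPM and Hoxb3 at 89.3 and 83.2 CPM. The Hoxb gene was the higher of the pair at numbers 2, 3 and 4. Hoxb4 stood at 185 and 160 CPM against 43.6 and 41.3 CPM for Hoxa4, and Hoxc4, the only measured Hoxc gene, had 57 and 30 UMIs. At number 5 the order turned: Hoxa5 was the highest member at 226 and 197 CPM, above Hoxb5 at 155 and 132 CPM. At the higher numbers Hoxa6 stood at 9.05 and 12.1 CPM and Hoxb6 at 32.4 and 24.5 CPM. Hoxa7 stood at 24.7 and 36.1 CPM, Hoxb7 at 8.69 and 10.3 CPM and Hoxb8, the last abundant gene of its cluster, at 31.3 and 33.7 CPM.

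Set between mothers, no measured member of fibroblasts was past 1.5-fold higher with the null mother, against 3.00% of the 11050 genes measured in that class, and 1 of 15 was past it lower, against 2.00%. That member was Hoxc4, at a ratio of 0.616 (0.382 to 0.974) of null over heterozygous mother, which turned to 1.33 when each cell was given equal weight. The differences within the fold split by paralogue number, a split made after the values were seen. All 10 measured members of numbers 1 to 5 had a ratio under 1 and summed to 885 and 774 CPM, a ratio of 0.875 (0.856 to 0.894), while 4 of 5 of numbers 6 to 8 had a ratio over 1 and summed to 106 and 117 CPM, a ratio of 1.10 (1.04 to 1.17). The sum of numbers 6 to 8 rose by no more than Hoxa7 alone, which stood at 24.7 and 36.1 CPM. Hoxa7 had the highest ratio, 1.46 (1.31 to 1.64), Hoxa6 1.33 (1.10 to 1.62) and Hoxb6, the exception among the higher numbers, the lowest after Hoxc4 at 0.757 (0.672 to 0.851). Under 8 other settings, 7 to 10 of the 10 low-numbered members had a ratio under 1, while Hoxa6, Hoxa7, Hoxb7 and Hoxb8 were over 1 and Hoxb6 under 1 in each. With the median of all genes set to 1, 9 of the 10 had a ratio under 1.

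Smooth muscle kept the fibroblast's genes with more weight on Hoxb, which gave 72.9% and 76.8% of its Hox UMIs. Hoxb4 led at 180 and 208 CPM, ahead of Hoxa5 at 107 and 81.2 CPM. Hoxb5 stood at 92.6 and 129 CPM, Hoxb2 at 99.7 and 75.5 CPM and Hoxb3 at 71.3 and 73.5 CPM. Of 9 measured members, 2 were past 1.5-fold higher with the null mother, against 3.36% of 7668 genes, and 0 were past it lower, against 4.29%. Hoxb8 stood at 10.5 and 30.4 CPM, a ratio of 2.89 (1.95 to 4.39) on 34 and 107 UMIs. Hoxa7 stood at 20.4 and 34.6 CPM, a ratio of 1.70 (1.25 to 2.33), in the same direction as in fibroblasts. The third measured gene of number 6 or above, Hoxb6, stood at 23.5 and 18.7 CPM. These 3 summed to 54.3 and 83.7 CPM, a ratio of 1.54 (1.27 to 1.87), and the 6 of lower number to a ratio of 1.03 (0.964 to 1.09), 3 of them under 1. Smooth muscle cells had a median of 2258 and 4404 UMIs. The median log2 ratio was 0.04 for the measured Hox genes and -0.02 for all genes.

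**Figure D2:**
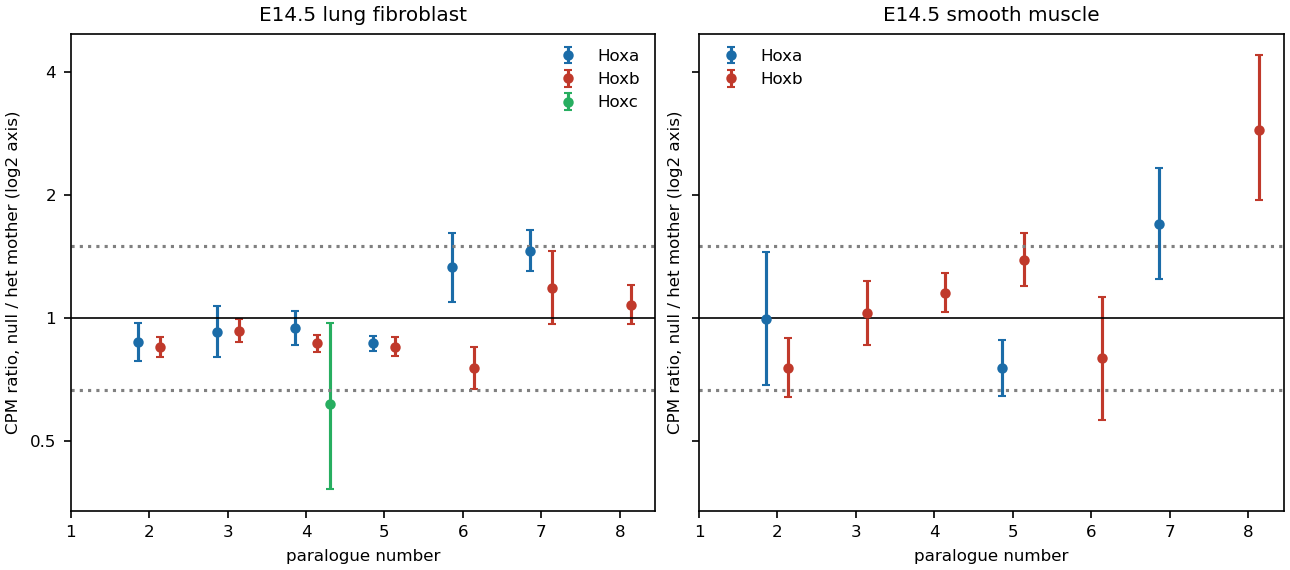
Ratio of CPM, null over heterozygous mother (log2 axis), against paralogue number for each measured Hox gene in E14.5 lung fibroblasts (left, 15 members, 1 not drawn) and smooth muscle (right, 9 members), coloured by cluster. Bars are 95% counting intervals, the solid line is a ratio of 1 and the dotted lines are 1.5-fold either way; Hoxa7 and Hoxb8 stand past the fold in smooth muscle and Hoxc4 in fibroblasts.

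Across the members, the log2 ratio and the paralogue number had a Pearson r of 0.45 and a Spearman rho of 0.37 over 15 members in fibroblasts, and 0.68 and 0.55 over 9 members in smooth muscle. They were 0.02 and 0.06 over 6 members in connective tissue fibroblasts and 0.08 and 0.03 over 6 in E14.5 endothelium, where only numbers up to 5 were measured. In that endothelium 4 of 6 low-numbered members were over 1 and their sum had a ratio of 1.09 (1.01 to 1.18), unlike the fibroblasts' sum. Hoxa5 gave most of that endothelial sum. The contrast was not kept under all settings. The ratio of all Hox UMIs of this endothelium came under 1 with equal weight for each cell, with thinned cells and without the deepest cells. The coefficients of fibroblasts and smooth muscle use the same ratios as the split by number, so they are no separate support for it. Members of 1 class share its 2 libraries, so all these coefficients are descriptions. In connective tissue fibroblasts, from 103 and 85 cells, all 6 measured members had a ratio under 1 and 3 were past 1.5-fold lower, against 7.13% of 2497 genes, with 0 higher against 3.36%. The 3 were Hoxb5 at 84.3 and 38.1 CPM (0.452, 0.261 to 0.749), Hoxb2 at 71.7 and 41.9 CPM (0.584, 0.342 to 0.963) and Hoxa4 at 64.9 and 41.9 CPM (0.646, 0.376 to 1.07). The class held 878164 and 524867 UMIs, so a member higher with the null mother needed a higher level to reach 50 UMIs. The rule thus favoured ratios under 1 here. Of members it left out, Hoxa3 (19.4 and 24.8 CPM), Hoxa6 (4.55 and 7.62 CPM) and Hoxa7 (21.6 and 26.7 CPM) were higher with the null mother. Hoxa2 (35.3 and 24.8 CPM), Hoxb6 (27.3 and 7.62 CPM) and Hoxb8 (29.6 and 22.9 CPM) were lower. The median log2 ratio over all genes of this class was -0.10, and with that median set to 1 as a ratio, 5 of the 6 stayed under 1. The count of 3 became 1 with a margin of 2 markers, as a mean over cells and at 2-fold, and as a mean over cells 1 member was past 1.5-fold higher. Hoxa5 in these cells stood at 173 and 160 CPM.

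Endothelium held fewer of these genes at a level near that of fibroblasts. Hoxa5 gave 59.1% and 63.4% of its Hox UMIs and stood at 132 and 151 CPM, which was 58.5% and 76.8% of the fibroblast level of the same library. Hoxa3 stood at 13.7 and 8.89 CPM, 69.6% and 48.6% of the fibroblast level, and Hoxb7, at 13 and 23 UMIs, at 30.7% and 24.4%. Hoxb2, Hoxb3 and Hoxb5 were each at 4.88% to 8.38% of the fibroblast level, and Hoxb6 at 1.27% and 0.896%. For comparison, the fibroblast collagens Col1a1, Col1a2 and Col3a1 stood in endothelium at 2.40% to 3.84% and 1.36% to 1.98% of their fibroblast level. They are not confined to lung fibroblasts, standing at 214% to 305% of that level in connective tissue fibroblasts and 81.0% to 134% in smooth muscle. In endothelium Hoxb6 was under these collagens and Hoxa3, Hoxa5 and Hoxb4 (14.8% and 15.8%) were over them. The part of RNA that reaches other droplets in these levels was not tested. Hoxa gave 73.1% and 75.9% of the Hox UMIs of endothelium, about 2 times its share in fibroblasts.

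**Figure D3:**
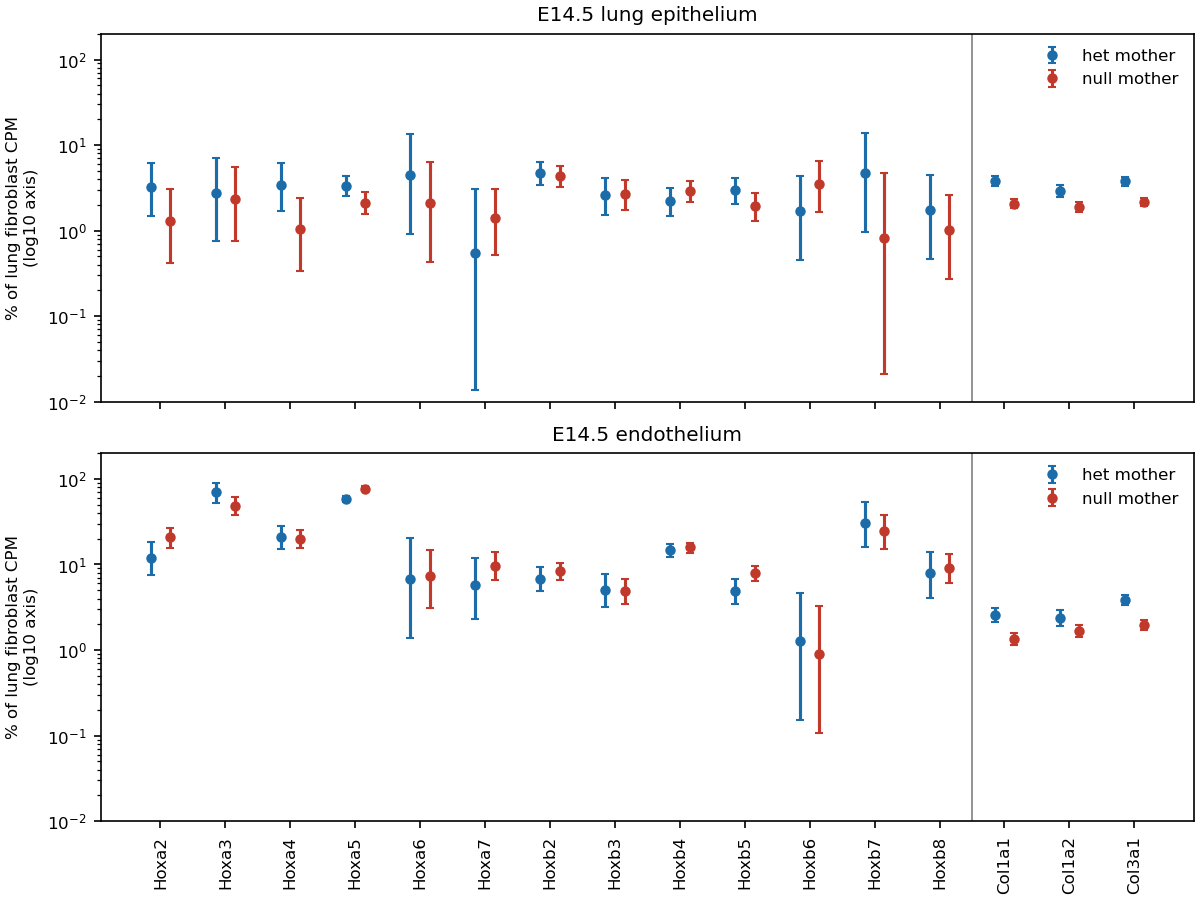
Level of 13 Hox genes and 3 fibroblast collagens (right of the grey line) in E14.5 lung epithelium (top) and endothelium (bottom), as percent of the lung fibroblast CPM of the same library on a log10 axis, with 95% counting intervals. In epithelium the Hox genes lay about the collagens, between 0.550% and 4.73%; in endothelium Hoxa3 and Hoxa5 lay between 48.6% and 76.8% and the collagens under 3.84%.

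Between mothers, 1 of 6 measured members of E14.5 endothelium was past 1.5-fold higher, against 4.14% of 8769 genes, and 1 lower, against 1.74%. The first was Hoxa2 at 4.51 and 6.80 CPM, a ratio of 1.51 (0.914 to 2.58), and the second Hoxa3 at 0.647 (0.462 to 0.908). Hoxa5 had a ratio of 1.14 (1.04 to 1.25), which became 0.918 with cells thinned to 2000 UMIs and 0.942 with equal weight for each cell. Endothelial cells had a median of 4181 and 7761 UMIs.

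Hoxd8 and Hoxd9, neighbours in the Hoxd cluster, had 14 and 12 UMIs and 19 and 11 UMIs in endothelium, from 8 and 9 cells with either gene. Prox1, the transcription factor that marks lymphatic endothelium, was found in 14 and 10 endothelial cells, and these held Ccl21a, a lymphatic chemokine, at 4095 and 737 CPM against 5.20 and 0.113 CPM in the other endothelial cells. With the heterozygous mother, 7 of the 8 cells with Hoxd8 or Hoxd9 had a Prox1 UMI, and Hoxd9 stood at 72.6 CPM in the 14 Prox1 cells and had 0 UMIs in the other 391, which allows up to 0.650 CPM. With the null mother, 1 of 9 such cells had a Prox1 UMI, and Hoxd9 stood at 6.89 CPM in the 10 Prox1 cells and at 1.02 CPM in the other 596. The libraries thus differ in where the Hoxd UMIs lay, on cell numbers this small and with up to 10 Hoxd9 UMIs in 1 cell. The Prox1 cells were also deeper, with a median of 10957 and 24855 UMIs against 3896 and 7602 in the others, and the part of depth in finding these genes together was not tested. These subsets of cells were chosen after the values were seen.

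In lung epithelium the 13 members with enough fibroblast UMIs stood at 0.550% to 4.73% and 0.827% to 4.32% of the fibroblast level, with medians of 2.97% and 2.12%. The 3 collagens stood at 2.91% to 3.82% and 1.90% to 2.15% in the same cells. Most members thus stood in epithelium at about the share at which the collagens did, and the part of free fibroblast RNA in these levels was not tested. Hoxb2 was the highest, at 4.73% (3.42% to 6.39%) and 4.32% (3.22% to 5.67%), and Hoxb4 stood at 2.20% and 2.87%. Of 2 measured members, Hoxa5 at 7.60 and 4.18 CPM was past 1.5-fold lower, at 0.551 (0.367 to 0.823), against 1.67% of 9765 genes, and 0 were higher, against 4.25%. As a share of the fibroblast level, Hoxa5 stood at 3.36% and 2.13%, and the 3 collagens were also lower with the null mother. The shares of Hoxa7, Hoxb3, Hoxb4 and Hoxb6 were higher. In fibroblasts Col1a1 was higher with the null mother, at 914 and 1178 CPM, while Hoxa5 was lower, at 226 and 197 CPM. In epithelium Col1a1 stood at 34.9 and 24.3 CPM and Col3a1 at 39.8 and 27.2 CPM. The cause of the lower Hoxa5 level was not tested.

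Hoxb9 was the exception in epithelium, being higher there than in fibroblasts. It had 6 and 35 UMIs in 4 of 468 and 25 of 720 epithelial cells (0.814 and 2.99 CPM), against 1 and 2 UMIs in 1562 and 1367 fibroblasts (0.0450 and 0.105 CPM). Sox2, the factor of the proximal airway, was found in 94 and 144 epithelial cells, of which 0 and 1 also had a Hoxb9 UMI, and with 4 Hoxb9 cells the first library cannot set these cells apart from the rest. In epithelial cells with Sox9, the factor of the distal tip, and no Sox2, Hoxb9 had 3 and 34 UMIs (0.579 and 4.46 CPM). Sftpc, the surfactant protein C gene of distal epithelium, stood at 857 CPM in the Hoxb9 cells of the heterozygous mother and 1718 CPM in the other epithelial cells, and at 8971 and 6190 CPM with the null mother, so the order turned between libraries. The Hoxb9 cells were deeper, with a median of 19614 and 26890 UMIs against 14874 and 15950. The part of depth in this was not tested.

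Of the remaining E14.5 classes, red cells had 11 and 15 Hox UMIs and macrophages 18 and 70. In macrophages 85.7% of the 70 UMIs came from Hoxb, and without the cells above the 95th percentile of UMIs the ratio of the summed level turned from above 1 to 0.355, so its direction rested on few cells. In heart muscle the members with enough fibroblast UMIs stood at 4.66% to 34.7% of the fibroblast level and the collagens at 13.6% to 20.0%. Mesothelium, a small class of 83 and 25 cells, held 406 and 374 CPM led by Hoxa5 at 138 and 111 CPM, and with Hoxc4 at 10.4 and 9.51 CPM against 2.57 and 1.58 CPM in fibroblasts, on 14 and 3 UMIs.

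Among the classes of at least 50 cells in the libraries labelled E18.5, the Hox level was highest in endothelium and blood progenitors. Endothelium held 202 and 148 CPM, blood progenitors 169 and 206 CPM and B lineage cells 24.6 and 15.5 CPM. Neutrophil precursors held 7.95 and 9.0 CPM and monocytes 8.08 and 7.37 CPM. T or innate lymphoid cells held 10.3 and 6.25 CPM, megakaryocytes 8.01 and 7.62 CPM, and macrophages 2.84 and 12.6 CPM on 3 and 31 UMIs. Later neutrophils held 2.53 and 2.05 CPM, and red cells and hepatocytes between 1.05 and 1.33 CPM. Some small classes stood above endothelium, namely connective tissue fibroblasts (21 and 14 cells) at 412 and 249 CPM and mesothelium (27 and 18 cells) at 333 and 199 CPM, and liver mesenchyme (36 and 32 cells) stood below it at 102 and 93.8 CPM. With cells thinned to 2000 UMIs, 21.5% and 37.1% of blood progenitors had a Hox UMI (57.4% and 58.4% unthinned), 3.99% and 3.07% of B lineage cells (7.08% and 5.47%) and 0.210% and 0.203% of red cells (0.619% and 1.01%). Thinned to 1000 UMIs, the shares of blood progenitors were 19.4% and 21.7%, so the gap between the libraries was not kept. Each thinning was 1 random draw on few Hox UMIs. The summed Hox level of blood progenitors was 154 and 268 CPM thinned to 2000 UMIs, and 214 and 302 CPM thinned to 1000. The parts of depth and of the draw in the gap were not tested.

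**Figure D4:**
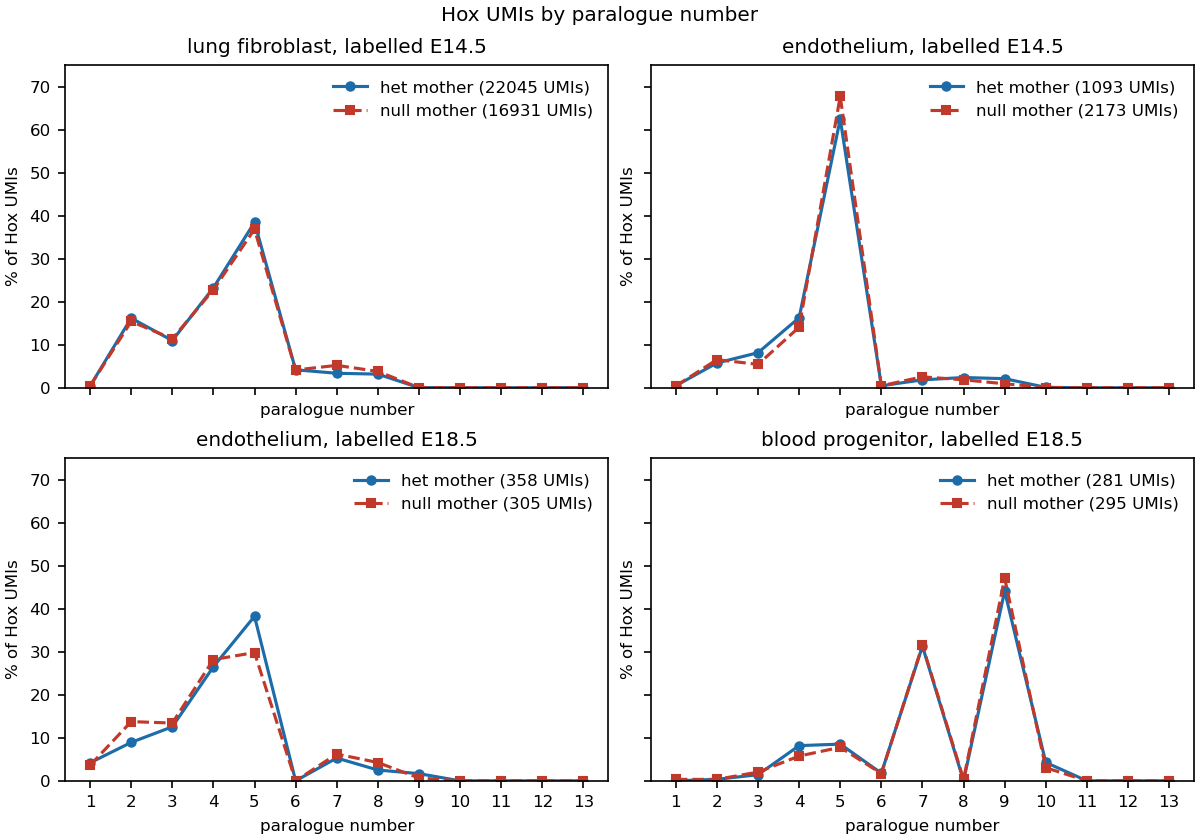
Share of all Hox UMIs of a class by paralogue number, for lung fibroblasts and endothelium of E14.5 (top) and endothelium and blood progenitors of the libraries labelled E18.5 (bottom), with the heterozygous mother in blue circles and the null mother in red squares. Fibroblasts and endothelium peak at numbers 4 and 5, and blood progenitors at numbers 7 and 9, in both libraries.

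Blood progenitors, gated on genes such as Cd34, Kit and Flt3, held genes of higher number than fibroblasts did. Hoxa gave 92.2% and 91.9% of their Hox UMIs, numbers of 9 and above gave 48.4% and 50.2%, and the mean paralogue number was 7.50 and 7.57. Hoxa9 led at 74.6 and 95.7 CPM, in 39.1% and 35.5% of the cells, followed by Hoxa7 at 52.9 and 65.0 CPM. Hoxa5 stood at 13.8 and 14.7 CPM, Hoxb4, a gene known from blood stem cells, at 11.4 and 11.9 CPM, and Hoxa10 had 12 and 9 UMIs, each in a cell of its own. The ratio was 1.28 (0.999 to 1.65) for Hoxa9 and 1.23 (0.907 to 1.66) for Hoxa7, so 0 of 2 measured members were past 1.5-fold either way, against 3.17% of 4324 genes higher and 3.26% lower. With cells thinned to 2000 UMIs the ratio of Hoxa9 became 2.44, a value from 1 random draw and given without an interval. In that draw the summed Hox level was 154 and 268 CPM, against 169 and 206 CPM unthinned. The thinned ratio therefore does not replace the unthinned 1.28.

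The genes that led this gate besides Cd34 and Hoxa9 included Cd74 and the MHC class II genes H2-Aa, H2-Eb1 and H2-Ab1, which are not progenitor markers. Cells with H2-Aa held none of the Hox UMIs of the gate: the 18 and 17 gated cells with an H2-Aa UMI had 0 Hox UMIs, which allows up to 33.0 and 34.4 CPM, and the other 184 and 180 cells held 179 and 219 CPM. The cells with H2-Aa had a median of 4989 and 4823 UMIs and the others 8323 and 7204.

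In the other blood classes the Hox level was lower and different genes led. B lineage cells held Hoxa7 at 13.5 and 9.69 CPM and Hoxa9 at 4.93 and 3.63 CPM, with 91.0% and 96.5% of Hox UMIs from Hoxa and a mean paralogue number of 6.79 and 7.15. Neutrophil precursors held Hoxa7 at 2.23 and 3.45 CPM, Hoxb4 at 2.51 and 2.36 CPM and Hoxa9 at 1.95 and 2.01 CPM. Monocytes held mostly Hoxb4, at 4.97 and 4.82 CPM on 16 and 17 UMIs, or 61.5% and 65.4% of their Hox UMIs. For red cells these 3 genes stood between 0.146 and 0.414 CPM. In B lineage cells, 0 of 1 measured member was past 1.5-fold, with Hoxa7 at a ratio of 0.715 (0.534 to 0.955), against 4.02% of 8903 genes higher and 2.17% lower. In neutrophil precursors Hoxa7, again the only measured member, was past it higher at 1.55 (1.01 to 2.41), against 5.12% of 9608 genes, and 0 were lower, against 0.697%. This class held 14341061 and 22897535 UMIs, so the rule of 50 UMIs took in a member higher with the null mother at a lower level. Hoxb4, at 2.51 and 2.36 CPM, was left out by it, so the call of 1 member was shaped by the rule.

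E18.5 endothelium held the low-numbered genes, with a mean paralogue number of 4.3 and 4.17. Hoxa5 stood at 58.2 and 23.3 CPM, on 103 and 48 UMIs, Hoxb4 at 47.4 and 38.9 CPM, Hoxb5 at 19.2 and 20.9 CPM and Hoxb2 at 14.7 and 15.6 CPM. Of 2 measured members, Hoxa5 was past 1.5-fold lower with the null mother at 0.401 (0.279 to 0.570), against 3.85% of 5532 genes, and 0 were higher, against 3.34%. Hoxb4 had a ratio of 0.819 (0.596 to 1.13). The Hoxa share of Hox UMIs was 45.5% and 31.5%, against 53.1% and 68.5% for Hoxb. Hoxd8 and Hoxd9 had 2 and 3 UMIs in the first library and 0 in the second, within the 3 counts that a count of 0 allows. The sex of the cells differed between these libraries, and its part in the difference of Hoxa5 was not tested.

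Genes that act with or on the Hox genes were read from lists. Of the TALE cofactors, 8 of 9 were measured in fibroblasts, with Meis1 at 251 and 231 CPM. Of these 8 cofactors 0 were past 1.5-fold either way, against 3.00% of 11050 genes higher and 2.00% lower. Their median log2 ratio was -0.09 there, beside -0.11 for the measured Hox genes and -0.03 for all genes. Endothelium held Meis2 at 208 and 251 CPM and Meis1 at 14.8 and 18.3 CPM, the reverse of fibroblasts, where Meis2 stood at 121 and 110 CPM. Blood progenitors held Meis1, a partner of HOXA9 known from leukaemia, at 112 and 97.1 CPM. Over the 9 classes with a measured Hox gene, 1 TALE call was made, Pbx3 in neutrophil precursors, higher at 2.02 and 3.10 CPM (1.53, 0.983 to 2.45) as 1 of 6 measured, against 5.12% of all genes. Outside these, Pbx4 in E18.5 red cells (1.81) and Pbx3 in hepatocytes (1.69) were past it higher, in classes whose median log2 ratio over all genes was 0.35 and 0.14. In these classes 2152 of 9927 and 760 of 8233 genes were past it higher.

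In fibroblasts 4 of 8 non-coding genes of the Hox clusters were measured, with Hotairm1 of the Hoxa cluster at 36.5 and 33.8 CPM and Hoxaas3 at 28.5 and 20.5 CPM. Of these 4 non-coding genes 0 were past 1.5-fold, against 3.00% of all genes higher and 2.00% lower. In E18.5 endothelium 2 were measured and both were past it lower, against 3.85% of all genes: Hotairm1 at 35.0 and 20.4 CPM (0.583, 0.384 to 0.876) and Hoxb3os at 30.5 and 19.0 CPM (0.621, 0.401 to 0.956). In smooth muscle Hotairm1 was past it higher at 1.62 (1.10 to 2.42) and Hoxaas3 lower at 0.490 (0.309 to 0.765), of 4 measured, against 3.36% of all genes higher and 4.29% lower. In lung epithelium the 1 measured, Hoxb3os, was lower at 0.651 (0.446 to 0.951), against 1.67% of all genes. Of the Polycomb genes, which keep Hox clusters silent, 14 of 15 were measured in fibroblasts, with Ezh2 at 228 and 194 CPM. Of these 14 genes 0 were past 1.5-fold, against the same 3.00% and 2.00% of all genes. In smooth muscle 1 of 11 was, Pcgf2, higher at 1.56 (1.09 to 2.26), against 3.36% of all genes. In connective tissue fibroblasts 1 of 2 was, Jarid2, lower at 0.656 (0.371 to 1.12), against 7.13%. All 10 genes of the MLL complex and its partners, which keep Hox genes active, were measured in fibroblasts. Of these 10 genes 0 were past the fold, against the same shares of all genes. Wdr5 was higher in E18.5 endothelium at 1.80 (1.18 to 2.79), 1 of 7 measured, against 3.34% of all genes. Kmt2a in heart muscle (0.580) was lower, as were 137 of 1635 genes there. In E14.5 macrophages Dpy30 (0.599) and the Polycomb gene Ezh2 (0.559, 0.416 to 0.753) were lower, as were 90 of 3069 genes. In E18.5 macrophages 1 of 4 Polycomb and 1 of 4 MLL genes were higher, against 416 of 4249 genes. In monocytes 1 of 8 and 1 of 7 were lower, against 139 of 6427. Of MLL genes, 1 of 10 was lower in later neutrophils (225 of 8003 genes). In E18.5 red cells 1 of 10 was higher (2152 of 9927), and in hepatocytes 1 of 9 (760 of 8233). Cdx and other ParaHox genes had 0 of 6 measured in any class described. Among the receptors and enzymes that regulate Hox genes in the hindbrain and trunk, Rarb, a retinoic acid receptor, was past it lower in fibroblasts, at 11.9 and 4.95 CPM (0.415, 0.324 to 0.527), against 2.00% of all genes, and 5 of 9 of that list were measured. Rarb was also lower in E18.5 endothelium at 0.635 (0.428 to 0.937), against 3.85% of all genes, and Gdf11 lower in lung epithelium at 0.651 (0.479 to 0.886), against 1.67%.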

How the data were processed

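Single-cell suspensions had been made, per the labels' protocols, by digestion with collagenase I and dispase I, straining and lysis of red cells with NH4Cl, and were run on the 10x Genomics Chromium platform. The deposited matrix holds raw UMI counts of genes in cells, all 4 libraries in 1 file, and a deposited annotation ties each cell to its library. The submitters' processing notes name Cell Ranger 3.0.0, Seurat 4.3.0 and the mm10 build, with no role or settings. The gene and cell lists of the deposit carry each other's names, and were told apart by their contents. Genes are given by symbol only. A separate symbol, Hoxd4.1, did not match the rule for members and was left out. The values of a few genes are not reported here, and these genes stay in the counts and sums.

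The members, markers, gene lists and settings were chosen with earlier results of these data known. Cells were gated on 24 lists of 8 markers, each cell needing at least 2. For each library, the UMIs of a class were added up and set over all UMIs of that class, times 1000000. Ratios are null over heterozygous mother, with exact conditional 95% intervals, levels with exact Poisson intervals and shares with exact binomial (Clopper-Pearson) intervals. All cover counting error only, since each group is 1 library, and no test was run. A member counted as past the fold at 1.5, with at least 50 UMIs in the higher library. A count of 0 was read as allowing 3. Genes named in the text are the measured members, members confined to few cells, and list genes highest in level or past the fold. Not every list gene past the fold is named. The subsets by Prox1, Sox2, Sox9 and H2-Aa were chosen after values were seen. Doublets were not called, so cells of 2 types may remain. How well a transcript is captured can differ between genes and was not corrected. The ratio, its interval and the 1.5-fold call were tested on simulated independent counts. UMIs grouped in few cells were outside that test, as were gating, thinning and shares of cells. Intervals came from scipy 1.17.1, tables from pandas 2.3.3 and numpy 2.4.6, and plots from matplotlib 3.10.9, under Python 3.11.15. Promoter windows came from a RefSeq table on GRCm38.p6 and coordinates from GENCODE M21 on GRCm38. Alternatives were a gate of 3 markers, a margin of 2 markers, totals without mitochondrial and haemoglobin UMIs, the median ratio of all genes set to 1, the mean over cells, cells up to the 95th percentile of UMIs, cells of 1000 genes and under 10% mitochondrial UMIs, thinning to 2000 UMIs (to 1000 for shares of cells), minimums of 10 and 200 UMIs and a 2-fold limit. Each thinning was 1 random draw, so values from thinned cells also carry the scatter of that draw.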

Additional observations from a re-analysis of the deposited data

Results flagged for a closer look

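Hoxa5 in endothelium stood on different sides of 1 at the 2 ages. The ratio of null over heterozygous mother was 1.14 (1.04 to 1.25) in the E14.5 libraries and 0.401 (0.279 to 0.570) in those labelled E18.5. The difference between the ages was not tested, since each group is 1 library. The E14.5 value turned to 0.942 with equal weight for each cell and to 0.918 with cells thinned to 2000 UMIs, while the E18.5 value stayed between 0.339 and 0.476 under the 8 alternatives. The E14.5 endothelium came with lung cells and the other with liver and blood cells, so age and tissue cannot be told apart.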

How the results depend on the processing

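A value is called reversed here if it was past 1.5-fold and came to the other side of 1. Of the summed ratios and counts past the fold, 120 were unchanged by an alternative, 47 moved and 1 reversed. Of 352 single-gene ratios, 315 were unchanged, 36 moved and 1 reversed. Values came to the other side of 1, past the fold or not, in 8 of 88 summed ratios (heart muscle and E14.5 endothelium 3 times each) and in 23 of the single-gene ratios. As a mean over cells, the summed level moved in 11 of 21 cases and the mean paralogue number in 7 of 21, and the share of cells with a Hox UMI moved in 20 of 38 when thinned to 1000 UMIs. The summed Hox ratio, null over heterozygous mother, moved as follows, from 1.41 in heart muscle and 1.06 in E14.5 endothelium. With a margin of 2 markers it was 0.968 in lung epithelium, 0.515 in connective tissue fibroblasts and 0.270 in heart muscle. As a mean over cells it was 0.608 in epithelium, 0.928 in lung fibroblasts, 0.942 in connective tissue fibroblasts, 0.996 in smooth muscle, 0.872 in E14.5 endothelium and 1.18 in E14.5 macrophages. With the deepest cells (beyond the 95th percentile) left out it was 0.563 in epithelium, 0.790 in heart muscle, 0.963 in E14.5 endothelium and 0.355 in E14.5 macrophages, where it reversed. With cells thinned to 2000 UMIs it was 0.601 in connective tissue fibroblasts, 0.417 in heart muscle, 0.895 in E14.5 endothelium, 1.17 in E14.5 macrophages, 1.55 in neutrophil precursors and 1.74 in blood progenitors. The causes were not tested.

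Counts of members past the fold moved too. In lung fibroblasts the count lower was 0 with a margin of 2 markers, as a mean over cells, without the deepest cells, at a minimum of 200 UMIs and at 2-fold, and 3 at a minimum of 10 UMIs, and the count higher was 1 without the deepest cells. In connective tissue fibroblasts the count lower was 1 with a margin of 2 markers, as a mean over cells and at 2-fold, 5 at a minimum of 10 and 0 at 200, and the count higher was 1 as a mean over cells. In smooth muscle the count lower was 2 as a mean over cells and 1 at a minimum of 10, and the count higher was 0 at 200 and 1 at 2-fold. In E14.5 endothelium the count lower was 0 with a gate of 3 markers, without the deepest cells, with the filter on genes and mitochondrial UMIs, at 200 and at 2-fold, 2 as a mean over cells and 3 at a minimum of 10; the count higher was 0 with the median ratio set to 1, without the deepest cells, at 200 and at 2-fold, and 2 at a minimum of 10. The Hoxc4 ratio of fibroblasts reversed to 1.33 as a mean over cells. The median log2 ratio over all genes was beyond 0.1 in erythroid cells of E14.5 (0.38) and E18.5 (0.35), T or innate lymphoid cells (0.15), hepatocytes (0.14) and connective tissue fibroblasts (-0.10). No paired analysis was possible because each group is 1 library and its result comes from no test. Most members of high number and of Hoxc and Hoxd had too few UMIs in a class for a ratio at this depth.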
